A study of Mus musculus with 7 samples.

Results

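Small nucleolar RNAs and small Cajal body RNAs were taken as all rows of the gene table whose symbol starts with Snora, Snord or Scarna. There were 130 such rows of 24739 in all, namely 84 C/D box RNAs (Snord), 37 H/ACA box RNAs (Snora) and 9 small Cajal body RNAs (Scarna). The 130 rows carried 119 different symbols, because Snord116 and its variants, Snord53, Snord58b and Snora19 each had several rows. RNA-Seq had been performed on whole testes of C57BL/6 embryos at E14.5, with the single pair of testes of 1 embryo in each library. The WT group held 3 wild-type libraries. The Mutant group held 4 libraries of Glis3 zf5 homozygotes, in which a deletion takes out exon 4 with stretches of both flanking introns in every cell and disrupts DNA binding by GLIS3, a Krüppel-like zinc finger transcription factor. Total RNA had been depleted of ribosomal RNA and primed at random, with no selection of polyadenylated RNA, so that RNAs without a poly-A tail could enter the libraries.

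Most C/D box RNAs pair with ribosomal RNA and direct the methylation of a ribose by fibrillarin. Most H/ACA box RNAs direct the conversion of uridine to pseudouridine by dyskerin. Small Cajal body RNAs do the same for spliceosomal RNAs in the Cajal body, a nuclear compartment organised by coilin. In mammals most of these RNAs are cut out of the introns of host genes, many of which encode ribosomal proteins or are noncoding small nucleolar RNA host transcripts (Snhg).

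The sequences of 8 rows are given to show the boxes that define the classes and the lengths on which detection turned. They were cut from GENCODE M21 transcripts at the deposited mm10 coordinates and are written 5′ to 3′. In C/D box RNAs the capitals mark the first TGATGA (C box) within 25 bases of the 5′ end and the last CTGA (D box) within 12 bases of the 3′ end. In H/ACA box RNAs they mark the last ACA within 8 bases of the 3′ end. Only the transcribed strand was searched. Nothing is marked in Scarna13.

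Snord15a (chr7:99482785-99482932, minus strand) and Snord15b (chr7:99479563-99479707, minus strand) are shown because the same gene, Rps3, holds both. Snord17 (chr2:144265982-144266202, minus strand) was the longest C/D box row, and Snord33 (chr7:45126864-45126945, minus strand) stands for the short rows that were listed at 0.
Snord15a: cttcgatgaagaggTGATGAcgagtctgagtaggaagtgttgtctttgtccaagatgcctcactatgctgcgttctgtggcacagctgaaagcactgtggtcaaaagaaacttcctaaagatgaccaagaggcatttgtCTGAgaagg
Snord15b: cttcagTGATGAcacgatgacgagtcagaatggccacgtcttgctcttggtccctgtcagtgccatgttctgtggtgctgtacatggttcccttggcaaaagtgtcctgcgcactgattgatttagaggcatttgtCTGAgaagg
Snord17: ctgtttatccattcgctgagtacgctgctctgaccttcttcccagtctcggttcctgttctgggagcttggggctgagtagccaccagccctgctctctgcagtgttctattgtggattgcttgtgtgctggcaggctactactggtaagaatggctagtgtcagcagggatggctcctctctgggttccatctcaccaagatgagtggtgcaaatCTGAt
Snord33: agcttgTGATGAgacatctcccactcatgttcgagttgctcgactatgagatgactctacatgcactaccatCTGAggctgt

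Snora43 (chr2:26637847-26637985, minus strand) had the highest level among the H/ACA box RNAs found in every library. Snora21 (chr11:97781639-97781766, minus strand) was the shortest row with any value above 0, whereas Snora24 (chr3:123507937-123508066, minus strand) was the longest member listed at 0 throughout. Scarna13 (chr12:105031075-105031349, minus strand) was the longest member.
Snora43: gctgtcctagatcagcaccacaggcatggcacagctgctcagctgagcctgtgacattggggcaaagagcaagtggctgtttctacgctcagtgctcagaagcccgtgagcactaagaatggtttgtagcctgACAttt
Snora21: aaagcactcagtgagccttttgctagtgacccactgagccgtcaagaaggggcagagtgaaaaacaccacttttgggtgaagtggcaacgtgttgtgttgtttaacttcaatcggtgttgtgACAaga
Snora24: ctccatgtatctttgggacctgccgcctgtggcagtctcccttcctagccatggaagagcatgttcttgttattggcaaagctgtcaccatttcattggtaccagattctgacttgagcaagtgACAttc
Scarna13: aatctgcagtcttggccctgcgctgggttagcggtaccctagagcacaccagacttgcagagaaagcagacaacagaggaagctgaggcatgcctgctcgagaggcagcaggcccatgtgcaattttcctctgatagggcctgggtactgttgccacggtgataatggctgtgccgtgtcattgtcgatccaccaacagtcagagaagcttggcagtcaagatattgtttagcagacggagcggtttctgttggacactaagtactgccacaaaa

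A sequence could be read for 119 of the 130 rows. CTGA lay in the 3′ window of 73 of 75 C/D box sequences (97.3%), against 2 of 36 H/ACA box sequences (5.56%) and 4 of 8 Cajal body sequences (50.0%). ACA lay in the 3′ window of 34 of 36 H/ACA box sequences (94.4%), against 1 of 75 C/D box sequences (1.33%) and 3 of 8 Cajal body sequences (37.5%). TGATGA lay in the 5′ window of 25 C/D box sequences (33.3%), of no H/ACA box sequence and of 1 Cajal body sequence (12.5%). The symbols and the 3′ boxes thus divided the rows in the same way for nearly every C/D and H/ACA box RNA. Snord15a and Snord15b were identical in 96 of 152 aligned positions (63.2%), and their longest shared run was 21 bases.

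The gene targeted in the mutant was examined first. Levels are in FPKM (fragments per kilobase of transcript, scaled for each library). Glis3 stood at 7.63, 6.89 and 2.91 FPKM in WT replicates 1, 2 and 3. In Mutant replicates 1 to 4 it stood at 3.86, 3.26, 2.904 and 2.66 FPKM. The library labelled WT replicate 3 thus lay within the Mutant range. The value covers the whole gene and not the deleted exon alone. The sum of FPKM reached from 694243 in WT replicate 1 to 1018678 in Mutant replicate 3. Read totals are not in the table. The steps between its lowest values gave scaling factors of 0.775 to 0.928 for the other libraries relative to WT replicate 1. These factors follow the normalization and need not be read depths. Sertoli cell markers (Amh, Sox9, Dhh and Gata4), fetal Leydig cell markers and germ cell markers were above 0 in every library. The summed germ cell markers (Ddx4, Dazl, Pou5f1, Dppa3 and Sall4) reached from 521 to 1205 FPKM in WT and from 428 to 558 FPKM in Mutant. The lowest WT sum, in the library labelled WT replicate 3, lay within the Mutant range. The summed Leydig cell markers reached from 1596 to 2658 FPKM in WT and from 2498 to 3073 FPKM in Mutant. In whole testes, fewer cells of a type and less RNA per cell cannot be told apart.

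Most of the small RNAs were not seen. Of the 130 rows, 115 were listed at 0 in all 7 libraries, 10 were above 0 in all 7, and 5 were above 0 in some libraries. By class, 10 of 37 H/ACA box RNAs (27.0%), 3 of 84 C/D box RNAs (3.57%) and 2 of 9 Cajal body RNAs (22.2%) exceeded 0 in 1 or more libraries. Among the members, detection went with length. Rows of the C/D class had a median length of 68 bases (range 20 to 221), those of the H/ACA class 119 bases (55 to 198) and those of the Cajal body class 118 bases (42 to 275). These are lengths of rows and need not be those of the RNAs, as Snord53 had rows of 20 and 68 bases. None of the 112 members shorter than 128 bases was above 0, whereas 15 of the 18 members of 128 bases or more were. Among those 18, 10 of 13 H/ACA box RNAs, all 3 C/D box RNAs and both Cajal body RNAs were detected, and the 3 that were not (Snora62, Snora70 and Snora24) were at most 130 bases long.

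The same limit held for the whole table. All 1288 rows shorter than 128 bases, of which 1152 were microRNA genes, were at 0 in every library. Spliceosomal and related RNAs that every cell uses were among them, such as Rnu11, Rnu6 and Rnu7, so that a 0 in a short row does not show that the RNA was lacking. The cDNA had been fragmented to about 275 bp, the length of the longest member. Whether fragment length or the length correction of the FPKM workflow set the limit was not tested. Of the 23353 rows of 400 bases or more, 90.8% were above 0 in at least 1 library. From 128 to below 140 bases, 6 of 9 members were above 0 somewhere and only Snora43 in all 7 libraries, against 4 of 26 other rows. All 9 members of 140 bases or more were above 0 in all 7 libraries, whereas of the other rows from 140 to below 300 bases only 4 of 20 were above 0 in any library.

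**Figure D1:**
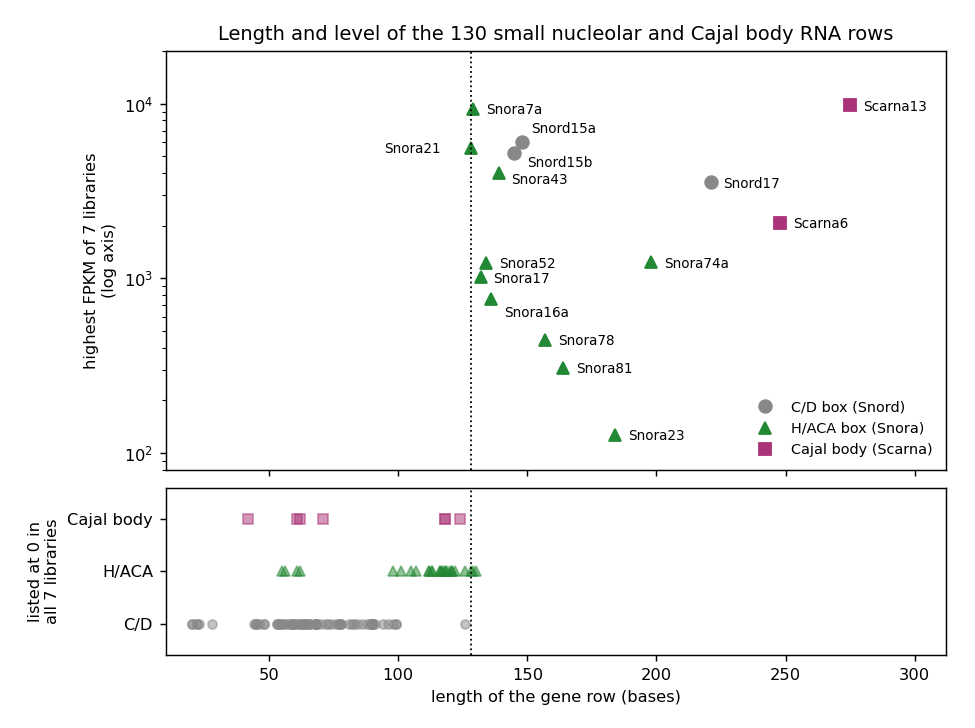
Upper panel, highest FPKM of the 7 libraries (log axis) against row length in bases for the 15 members with any value above 0. Lower panel, lengths of the 115 members listed at 0 in every library, by class. The dotted line marks 128 bases, the shortest row with a value above 0, and only 3 members at 0 lie at or beyond it.

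Most of the genes that hold the unseen members were themselves expressed. A host, the shortest table row on the same strand that contained the member, was found for 96 of the 115 unseen members, in 71 different genes. Of these 71 genes, 65 reached a mean of 0.5 FPKM, and the median level over all 71 was 49.4 FPKM. The lowest were Htr2c (0.00388 FPKM), which holds Snora35, and Ipw (0.0082 FPKM), which holds rows of Snord116 and Snord116l1. Gnb2l1, which encodes the ribosome-associated protein RACK1, had the highest mean (2353 FPKM) and holds Snord95 and Snord96a. Rpl13a, a ribosomal protein gene with a mean of 1140 FPKM, holds Snord32a, Snord33, Snord34 and Snord35a. Nop56 (87.8 FPKM) and Nop58 (136.6 FPKM), which encode core proteins of the C/D box particle, each hold a pair of C/D box RNAs, Snord57 and Snord110 in Nop56 and Snord11 and Snord70 in Nop58. All of these small RNAs were listed at 0. Some ribosomal protein hosts stood far lower, such as Rpl23a (0.220 FPKM) and Rps12 (0.172 FPKM). Such genes have near-identical processed copies elsewhere in the genome. Whether the counting split their reads among these copies was not tested, and these levels are uncertain.

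Among the members above 0 in every library, the C/D box RNAs were Snord15a, Snord15b and Snord17. Both Snord15 RNAs and Snord17 are guides for the modification of 28S ribosomal RNA. Snord15a (gene ID 449630) lies within Rps3 and overlaps no exon of its annotated transcripts. It stood at 3488, 5658 and 5733 FPKM in WT and at 4502, 4516, 4577 and 6017 FPKM in Mutant. WT replicate 1 was the lowest library and Mutant replicate 4 the highest, and the groups overlapped (WT 4960 ± 1275, SD, n = 3; Mutant 4903 ± 743, SD, n = 4; log2 fold change 0.01, SE 0.22). Snord15b (gene ID 449631) overlaps an exon in 1 of 5 annotated Rps3 transcripts. It stood at 1606, 3157 and 2752 FPKM in WT and at 5216, 4913, 3168 and 3115 FPKM in Mutant. Mutant replicates 1 and 2 were the highest libraries, but the lowest Mutant library lay just below WT replicate 2 (log2 fold change 0.73, SE 0.28). The ratio of Snord15b to Snord15a was 0.461, 0.558 and 0.480 in WT and 1.16, 1.09, 0.692 and 0.518 in Mutant replicates 1 to 4. It was above every WT value in 3 of 4 Mutant libraries, and this was noticed in the data and given no test. Snord17 (gene ID 100313519), in an intron of Snx5, stood at 1164, 3331 and 2534 FPKM in WT and at 3536, 2878, 2481 and 2501 FPKM in Mutant (log2 fold change 0.40, SE 0.33).

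The H/ACA box RNAs above 0 in every library were Snora43, Snora74a, Snora78, Snora81 and Snora23. Snora43 (gene ID 100306955), in the noncoding host Snhg7, stood at 1332, 2915 and 2193 FPKM in WT and at 3994, 2954, 2870 and 3207 FPKM in Mutant. Of the 4 Mutant libraries, only replicate 3 fell below WT replicate 2 (log2 fold change 0.66, SE 0.25). Snora74a (gene ID 436583), held by Snhg4, stood at 500, 1233.65 and 800 FPKM in WT, and the Mutant libraries lay within that range, from 775 to 867 FPKM. Snora78 (gene ID 100306952), held by Snhg9, stood at 164, 349 and 443 FPKM in WT, and its Mutant libraries also lay inside the WT range (251 to 398 FPKM). Snora23 (gene ID 100379145), in an intron of the importin gene Ipo7, was the lowest of the 10, at 53.2, 103 and 60.5 FPKM in WT and 127, 98.2, 83.0 and 58.4 FPKM in Mutant. Snora81 (gene ID 100217420), held by the translation factor gene Eif4a2, stood at 286, 250 and 221 FPKM in WT and at 174, 307, 241 and 158 FPKM in Mutant. It was the only one of the 10 whose mean log2 level was lower in Mutant (log2 fold change -0.24, SE 0.22).

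Of the small Cajal body RNAs, Scarna13 and Scarna6 were detected, and both in every library. Scarna13 (gene ID 100306943), in an intron of Snhg10, had the highest mean of all members, at 5191, 7287 and 6865 FPKM in WT and 6818, 7744, 8219 and 9796 FPKM in Mutant. Of the 4 Mutant libraries, 3 exceeded every WT library (log2 fold change 0.34, SE 0.20). Scarna6 (gene ID 100217415), in an intron of the autophagy gene Atg16l1, stood at 859, 2083 and 1529 FPKM in WT and from 1352 to 1571 FPKM in Mutant (log2 fold change 0.05, SE 0.26).

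**Figure D2:**
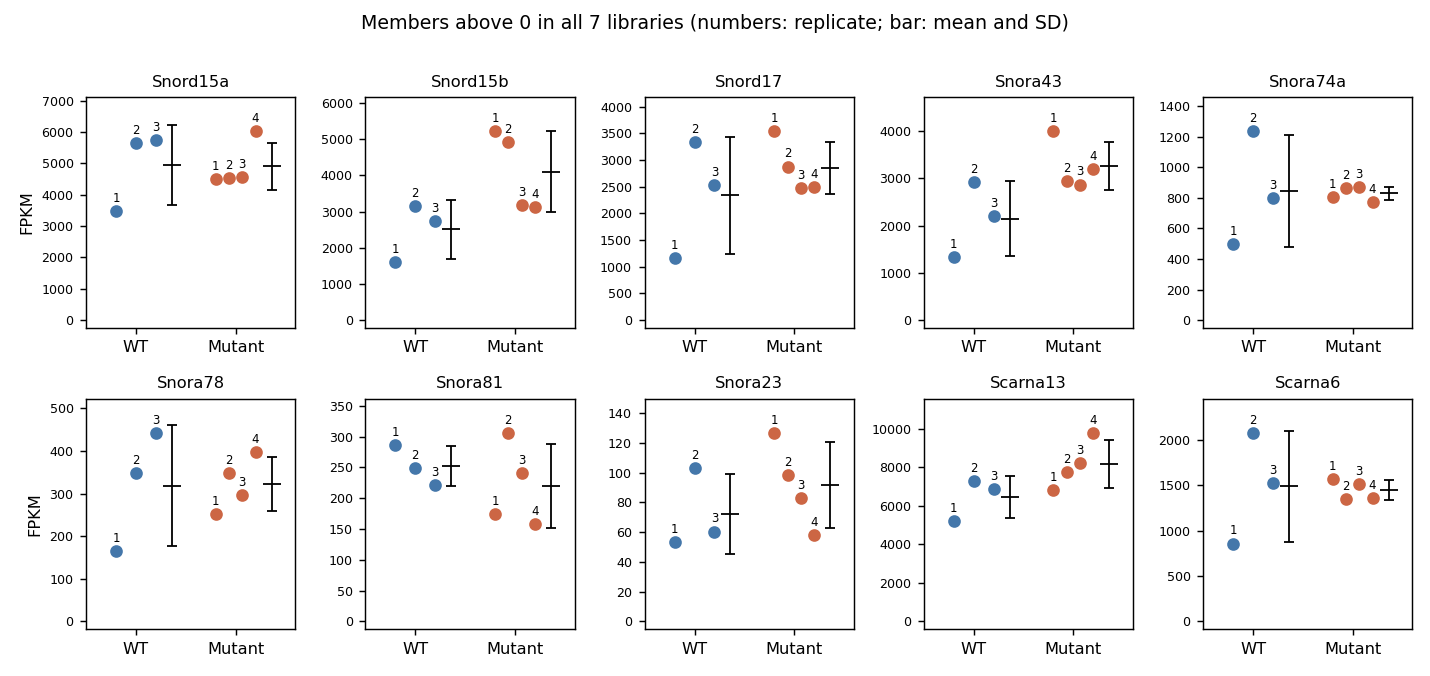
FPKM (linear axes from 0) of the 10 members above 0 in every library, WT in blue and Mutant in orange, with replicate numbers at the points and the mean and SD beside each group. WT replicate 1 is the lowest point in 9 of the 10 panels, and no panel shows groups that do not overlap.

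The library labelled WT replicate 1 stood apart in these RNAs. It was the lowest of the 7 libraries for 9 of the 10 members, all but Snora81, whereas it was the lowest for 20.02% of all genes tested. The mean log2 level of the 10 members was 9.53 in WT replicate 1 and 10.18 to 10.45 in the other 6 libraries. WT replicate 1 was also lowest in Rmrp, the RNA of the ribonuclease MRP, with 175167 FPKM against 234894 to 320022 FPKM in the others. It was the highest library for all 5 germ cell markers and the lowest for 4 of the 5 Leydig cell markers, all but Star, and the part of cell composition in the small RNA values was not tested. Some results below are also given without this library. As it was the lowest for 9 of the 10 members, leaving it out lowers their log2 fold changes by itself. The median SD of log2 level over the 10 members was 0.54 in WT (range 0.19 to 0.79) and 0.23 in Mutant (0.08 to 0.47), against medians of 0.15 and 0.10 over all 13988 genes tested.

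The remaining 5 members, all H/ACA box RNAs of 128 to 136 bases, were above 0 in some libraries only. Snora21, held by the ribosomal protein gene Rpl23, was listed at 0 in WT replicate 1 and Mutant replicates 1 and 4, and stood at 2282 to 5565 FPKM in the other 4 libraries. Snora7a, held by Rpl32, was at 0 in WT replicate 2 and Mutant replicate 3, at 1148 to 1625 FPKM in 4 libraries and at 9338 FPKM in WT replicate 3, where it was 8.14 times its lowest value above 0. Snora17, held by Snhg7 like Snora43, was at 0 in WT replicate 2 and Mutant replicates 1 and 4 and otherwise between 581 and 1012 FPKM. Snora52, in the ribosomal protein gene Rplp2, was at 0 in WT replicate 3 and Mutant replicates 2 and 3. Its other values were 255, 914, 297 and 1225 FPKM. Snora16a, in Snhg12, was at 0 in WT replicate 3 and Mutant replicate 1 and otherwise between 216 and 761 FPKM. The zeros fell in both groups for every one of these RNAs, with 2 of 3 WT libraries and 2 or 3 of 4 Mutant libraries above 0. Values that pass between 0 and such FPKM from replicate to replicate give no measure of a change. The SE of their log2 fold changes ran from 3.05 to 4.34. In rows this short the length correction is uncertain and the number of fragments behind a value is not known. The size of these FPKM values is therefore not a measure of abundance.

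**Figure D3:**
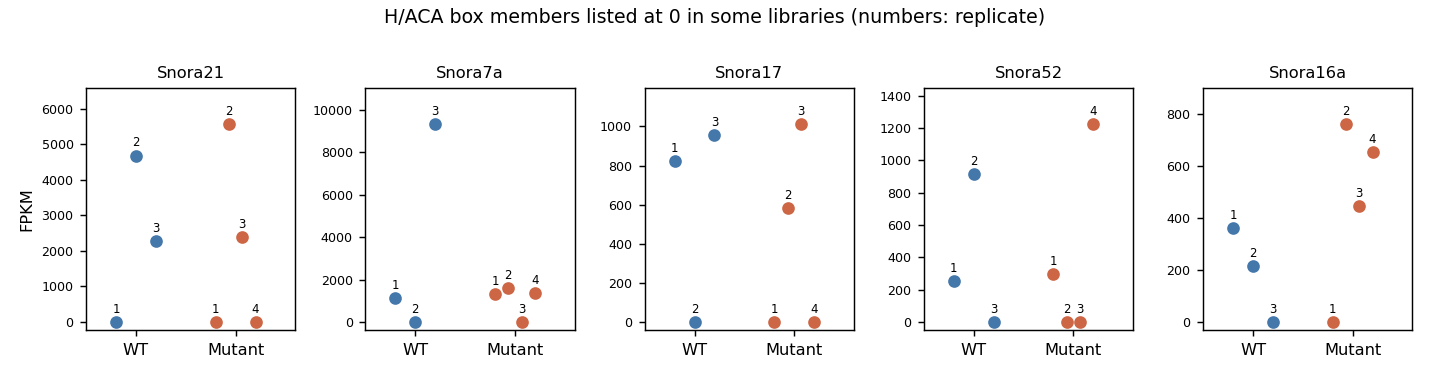
FPKM (linear axes) of the 5 H/ACA box members listed at 0 in some libraries, with replicate numbers at the points. Each panel has zeros in both WT (blue) and Mutant (orange), and Snora7a reaches 9338 FPKM in WT replicate 3 alone.

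WT and Mutant were compared for every gene that averaged 0.5 FPKM or more, by limma on log2(FPKM + 0.5) with Benjamini-Hochberg adjustment. None of the 15 members that passed the filter was past the adjusted threshold of 0.05, against 1 of 13988 genes (0.00715%), Cpsf4l. At an unadjusted p under 0.05, 2 members were higher in Mutant, Snora43 and Snord15b, beside 8.21% of all genes, and 0 were lower, beside 8.79%. The limma adjusted p was 0.251 for Snora43 and 0.257 for Snord15b. The two-sided exact permutation p over all 35 ways of labelling 3 libraries WT and 4 Mutant was 0.0571 for Snora43 and 0.143 for Snord15b, where the smallest possible value is 0.0286. No member had groups that did not overlap, whereas 7.31% of genes tested were higher in all Mutant libraries than in all WT libraries and 7.59% were lower. Over the 10 members above 0 in every library the median log2 fold change was 0.23 and 9 were positive. Over all 13988 genes tested the median was 0.01 and 7294 were positive. Without WT replicate 1 the median over the 10 members was -0.09. Snora43 then stood at 0.35 and Snord15b at 0.44, and 0 members had an unadjusted p under 0.05 in limma. Leaving out Mutant replicate 1 also left 0 such members.

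By class, the median log2 fold change was 0.40 over the 3 C/D box RNAs (-0.04 without WT replicate 1) and 0.12 over the 5 H/ACA box RNAs above 0 in every library (-0.14 without WT replicate 1). It was 0.19 over the 2 Cajal body RNAs. C/D box RNAs made up 0.902% to 1.59% of the FPKM sum of a library, H/ACA box RNAs 0.709% to 1.70%, and Cajal body RNAs 0.872% to 1.17%. These shares rest on few RNAs, and the H/ACA box share was highest in the library labelled WT replicate 3, where Snora7a alone stood at 9338 FPKM. They also depend on the sum itself. The RNAs of the ribonucleases MRP and P (Rmrp and Rpph1) alone made up 31.4% of it in WT replicate 1 and 48.5% in Mutant replicate 3.

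The 10 members above 0 in every library had 9 host genes, with log2 fold changes from -0.14 to 0.26, and none was past the threshold in limma (adjusted p from 0.344 to 0.977). The median SD of log2 level over these hosts was 0.08 in WT and 0.12 in Mutant. The SD of the host was below that of its small RNA for 10 of 10 pairs in WT, with WT replicate 1 included, and for 8 of 10 in Mutant. The exceptions in Mutant were Snhg9, with an SD of 0.76 against 0.29 for Snora78, and Snhg4, with 0.12 against 0.08 for Snora74a. These spreads were not tested. Rps3, which encodes a protein of the small ribosomal subunit and holds both Snord15 RNAs, stood at 1311, 1223 and 1300 FPKM in WT and 1576, 1318, 1281 and 1384 FPKM in Mutant (log2 fold change 0.12, SE 0.10). Snhg7 stood at 16.5, 10.95 and 15.7 FPKM in WT and 16.0, 16.8, 11.97 and 14.0 FPKM in Mutant, a log2 fold change of 0.04 (SE 0.16) beside 0.66 for Snora43. Snx5, which encodes a sorting nexin and holds Snord17, was the one of the 9 hosts whose groups did not overlap, beside 7.59% of all genes tested that were lower in this way. Its WT libraries lay between 189 and 195 FPKM and its Mutant libraries between 182 and 188 FPKM (log2 fold change -0.07, SE 0.05). The difference between a small RNA and its host was not tested.

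**Figure D4:**
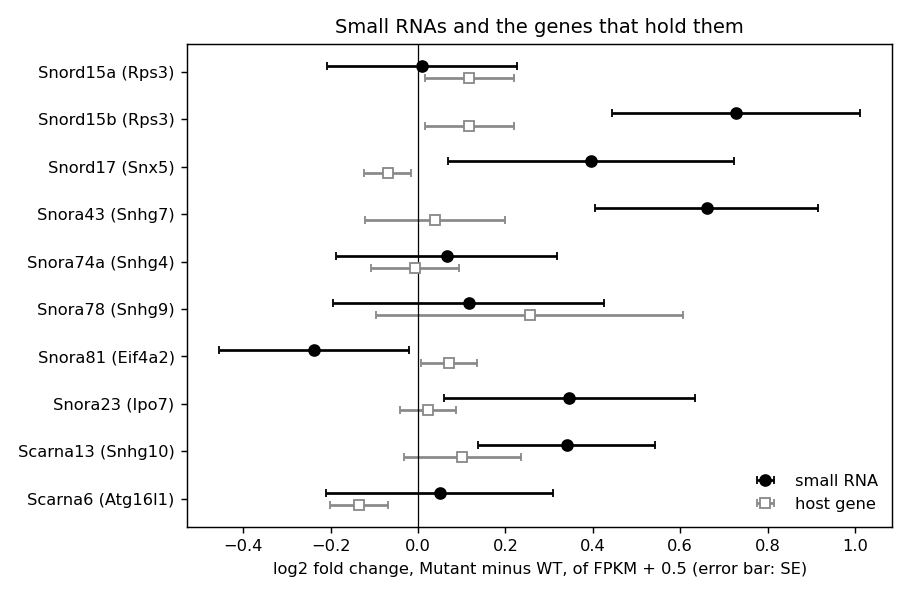
Log2 fold change (Mutant minus WT, on log2(FPKM + 0.5)) of the 10 members above 0 in every library (black circles) and of their host genes in brackets (open squares), with SE bars from limma. Snord15b (0.73) and Snora43 (0.66) lie farthest from 0, while no host exceeds 0.26.

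Host transcripts of the Snhg family and Gas5 were examined as a list of 14 genes, 13 of which passed the filter. None was past the adjusted threshold, and the median log2 fold change was 0.11. It was positive for 10 and negative for 3, beside 7294 positive of all 13988 genes tested. The groups did not overlap for 1 of the 13, Snhg6, beside 7.31% of all genes tested that were higher in this way. Snhg6 stood at 264, 306 and 325 FPKM in WT and 342, 347, 355 and 416 FPKM in Mutant (log2 fold change 0.29, SE 0.10, limma adjusted p = 0.220). Other short RNAs made without a host were also examined. Terc, the RNA of telomerase, which carries an H/ACA domain, stood at 30.0, 39.0 and 46.9 FPKM in WT and between 37.8 and 45.8 FPKM in Mutant. Rpph1, the RNA of ribonuclease P, spanned 13630 to 174222 FPKM and was low in WT replicate 1 and Mutant replicates 1 and 2. Of the 9 listed RNAs in the table, 4 were at 0 throughout and none of the 5 tested was past the threshold.

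The mRNAs of proteins of these particles were examined next, and none of 27 was past the adjusted threshold in limma. Log2 fold changes were negative for 9 of 11 C/D box, 4 of 6 H/ACA box and 7 of 10 Cajal body genes, beside 47.9% of all genes tested. The Cajal body list includes Tcof1 (-0.21), whose product treacle is a protein of the nucleolus. Of the 11 genes for proteins of the C/D box particle and its assembly, 4 were lower in every Mutant library than in every WT library and 1 was higher, beside 7.59% and 7.31% of all genes tested. Fbl, which encodes the methyltransferase fibrillarin, stood at 8.21, 7.83 and 7.52 FPKM in WT and at 6.34, 5.77, 5.42 and 5.41 FPKM in Mutant. The groups did not overlap, with a log2 fold change of -0.42 (SE 0.08, limma adjusted p = 0.139). The assembly factors Znhit6 (log2 fold change -0.34, SE 0.11), Ruvbl1 (-0.32, SE 0.09) and Rpap3 (-0.26, SE 0.07) were likewise lower in all Mutant libraries, and Pih1d1 was higher (0.12, SE 0.05). Nop56 and Nop58, which encode core proteins, overlapped between groups, with log2 fold changes of -0.12 and -0.01.

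Among the 6 genes for proteins of the H/ACA box particle, the groups overlapped for every one. Dkc1, which encodes the pseudouridine synthase dyskerin, stood at 35.6, 25.5 and 28.8 FPKM in WT and between 25.6 and 28.4 FPKM in Mutant (log2 fold change -0.16, SE 0.11). The assembly factor Shq1 had a log2 fold change of -0.36 (SE 0.11, limma adjusted p = 0.201), with the library labelled WT replicate 3 just below the highest Mutant library. Of the 10 genes listed for Cajal body proteins, 3 were lower in all Mutant libraries and 0 were higher, beside 7.59% and 7.31% of all genes tested. They were Gemin5 (log2 fold change -0.48, SE 0.12), Gemin4 (-0.27, SE 0.07), both of the SMN complex that loads Sm proteins onto spliceosomal RNAs, and Wrap53 (-0.27, SE 0.08), which brings RNAs to the Cajal body. Coil, which encodes coilin, stood at 23.1, 18.4 and 22.3 FPKM in WT and between 18.03 and 19.5 FPKM in Mutant (log2 fold change -0.19, SE 0.09). No germ cell or Leydig cell marker was past the adjusted threshold. Log2 fold changes ran from -1.08 to -0.57 over the 5 germ cell markers, with groups that did not overlap for 3, and from 0.42 to 0.66 over the 5 Leydig cell markers, with groups that did not overlap for 2. The part of these cell types in the values above was not tested. Without the library labelled WT replicate 3, 722 genes were past the adjusted threshold in limma. Among them were Fbl (adjusted p = 0.0401), Znhit6 (0.0278), Ruvbl1 (0.0315), Shq1 (0.0370) and Gemin5 (0.00643), and the germ cell markers Ddx4, Dazl, Pou5f1 and Sall4. No small nucleolar or Cajal body RNA was among them. WT replicate 3 was the lowest WT library for each of these named genes, all lower in Mutant, so leaving it out widens their differences by itself.

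**Figure D5:**
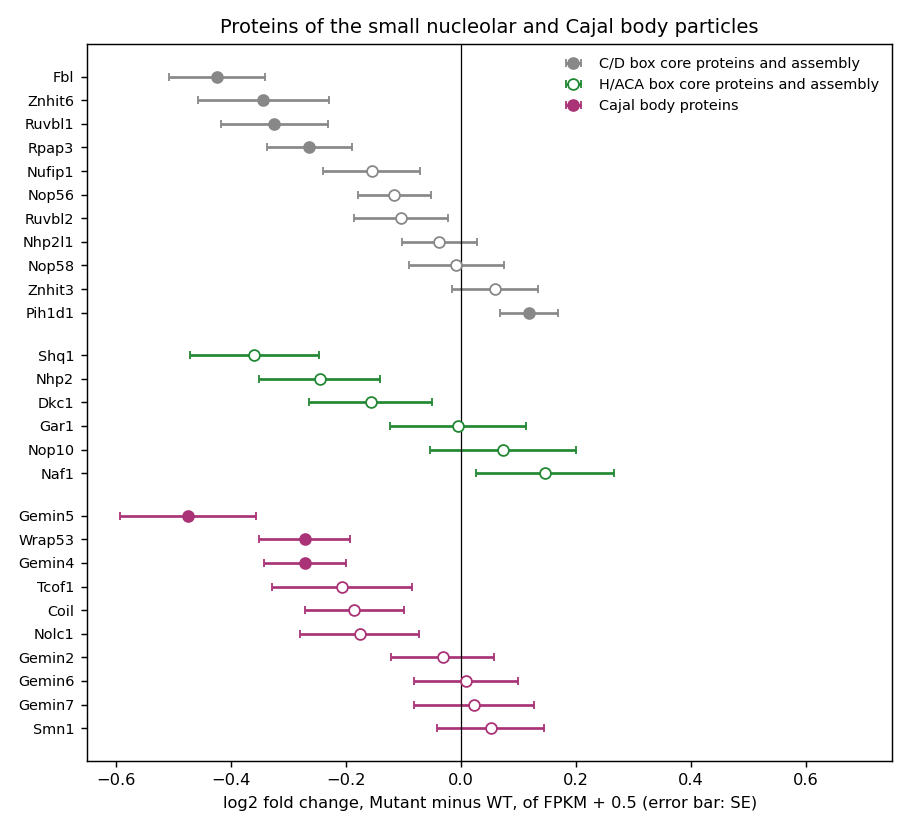
Log2 fold change (Mutant minus WT, on log2(FPKM + 0.5)) with SE bars from limma for the genes listed under C/D box (11), H/ACA box (6) and Cajal body (10) proteins. Filled points mark the genes whose groups do not overlap, 7 of them lower in Mutant (Fbl, Znhit6, Ruvbl1, Rpap3, Gemin5, Wrap53 and Gemin4) and 1 higher (Pih1d1).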

How the data were processed

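RNA-Seq had been performed on rRNA-depleted total RNA. Reads were aligned to mm10 with TopHat, per the labels and methods, and the authors quantified RefSeq genes with Cuffquant and Cuffnorm. The deposited FPKM table holds no read counts and comes from unstranded libraries, so a member, its host and any antisense RNA at the same place cannot be fully separated. A length correction makes the FPKM of rows near the fragment length uncertain. A deposited table of repeat elements was not used.

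Genes averaging 0.5 FPKM or more were compared by limma 3.58.1 (R 4.3.3) after transformation to log2(FPKM + 0.5) (lmFit, eBayes with a trend, all 7 libraries, no covariate, two-sided, Benjamini-Hochberg over 13988 genes, threshold 0.05). Each library is 1 embryo. Single members were also compared by exact permutation over 35 splits. The code was tested on simulated data. Host genes had to span at least 400 bases. Exons were taken from GENCODE M21, and a member was called intronic where no annotated exon of its host overlapped it.

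The members and lists were chosen with earlier results of these data known. Members were named by a rule: the 5 highest means per class, any past the threshold, the 5 smallest p-values in each direction and the 5 largest SDs. Proteins, host transcripts and other RNAs were named where groups did not overlap, with Fbl, Dkc1 and Coil, and the hosts of named members were added. Rps12, Rpl23a, Gnb2l1, Rpl13a, Nop56, Nop58, Shq1, Terc, Rpph1, Rmrp, Cpsf4l, Rnu6, Rnu7 and Rnu11 were chosen after their values were seen. Alternatives were a pseudocount of 0.1 or 1, dropping the filter or raising it to 2 FPKM, normalization by quantiles, median centring, no trend, array weights, a replicate block and leaving out each library. The medians over members, and over H/ACA box members, above 0 in every library were added after seeing the data.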

Additional observations from a re-analysis of the deposited data

Results flagged for a closer look

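Of 58 genes and members that are named above with values and were above 0 in all Mutant libraries, 6 had a Mutant library far from the other 3, by Dixon's criterion for 4 samples. Chance gives about 1 in 20. Snord15a stood at 6017 FPKM in Mutant replicate 4, and the gap to the next library was 0.951 of the group's range. Wrap53 stood at 12.7 FPKM in Mutant replicate 3 (0.914 of the range), still below all WT libraries. Ruvbl1 stood at 9.89 FPKM in Mutant replicate 1 (0.842 of the range), also below all WT libraries. Snx5 stood at 188.5 FPKM in Mutant replicate 2 (0.849 of the range). Rpl32 was low in Mutant replicate 3, at 1231 FPKM (0.939 of the range), and so was Star in Mutant replicate 2, at 157 FPKM (0.890 of the range).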

How the results depend on the processing

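No member was past the adjusted threshold under any of the 16 alternatives. The number of genes past it over the whole table, 1 in the analysis reported, was 4 without the filter, 3 with quantile normalization, 0 with the replicate block and 1 to 722 when each library was left out. Members with an unadjusted p under 0.05 and higher in Mutant, 2 as reported, numbered 0 without the filter, 1 with array weights, 2 with the replicate block and 0 to 3 when each library was left out; those lower in Mutant numbered 0 to 1. When each library was left out, the median log2 fold change ranged from -0.0436 to 0.71 over C/D box members, -0.15 to 0.36 over the 10 H/ACA box members tested (0.09 with all libraries, 5 members having zeros), -0.14 to 0.39 over those above 0 in every library and -0.09 to 0.41 over all members above 0 in every library. Quantile normalization turned the H/ACA box median to -0.02 and array weights to -0.02. Some log2 fold changes reversed. With quantile normalization Scarna6 stood at -0.0735, Snora74a at -0.0947, Snord15a at -0.21 and Rps3 at -0.0148, and with array weights Scarna6 at -0.0054, Snora7a at -0.0425, Snord15a at -0.0318 and Nop58 at 0.0074. With median centring Nop58 stood at 0.0041. With the replicate block Snora21 stood at 0.11, Snora7a at -0.77 and Snord15a at -0.0939. The block gives Mutant replicate 4, which has no WT counterpart, no weight. Leave-one-out values ranged from -0.30 to 0.34 for Scarna6, -0.26 to 0.39 for Snora74a, -0.30 to 0.41 for Snora78, -0.23 to 0.13 for Snord15a, -0.14 to 0.1474 for Snhg7, -0.0775 to 0.0467 for Nop58 and -0.0436 to 0.71 for Snord17. Among members with zeros they ranged from -1.45 to 4.16 for Snora16a, -6.26 to 0.34 for Snora21, -4.80 to 0.62 for Snora52 and -4.06 to 3.04 for Snora7a. The cause was not tested. Same-numbered WT and Mutant libraries correlated in their deviations from the group means at 0.20, -0.18 and 0.23 over the genes tested for numbers 1, 2 and 3. Of the 3 WT libraries, 2 correlated best with their own number. So few pairs cannot show whether same-numbered samples share more than the number.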
